A study of Arabidopsis thaliana with 14 samples.

Results

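The mitochondria-encoded genes of *Arabidopsis thaliana* were taken as all gene IDs beginning with ATMG whose RPKM (reads scaled to gene length and to the mapped reads of the library) was above 0.1 in at least 3 of 14 seedling libraries. This rule kept 124 of the 146 ATMG IDs in the tables, within 23187 of 33602 genes that met it over the whole series. The libraries were made from 14-day-old Col-0 background seedlings grown in long days, with 3 each from hda6-6, hda5-1 and hda9-1, 1 from fve-4, 1 from fld-6 and 3 from the wild type Col. HDA6, HDA5 and HDA9 encode histone deacetylases, FLD a histone demethylase of the LSD1 type and FVE a WD40-repeat protein of the autonomous flowering pathway. By the study's methods, hda6-6 carries a point mutation at a splice site, fve-4 a point mutation that gives an early stop, and fld-6 a T-DNA insertion, while hda5-1 and hda9-1 are named in the labels without the lesion. Each mutant is 1 allele in the Col-0 background, and whole seedlings were pooled over all their organs. The methods give 3 biological repeats for Col and hda6-6, and nothing states that the 3 libraries of hda5-1 or hda9-1 came from separate plantings, so that their p-values may measure technical spread alone.

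The plant mitochondrial genome encodes core subunits of the respiratory complexes, proteins that attach heme to cytochrome c, some ribosomal proteins, the ribosomal RNAs and a set of tRNAs, and many further open reading frames of unknown role. The other subunits are encoded in the nucleus and imported. Plant mitochondrial transcripts are spliced and edited from C to U, and unlike nuclear mRNAs they carry no stable poly(A) tail: short tails mark them for decay. The libraries were selected on poly-T beads, so that the values below are levels in polyadenylated RNA and not in all mitochondrial RNA. In whole seedlings, fewer mitochondria or fewer cells of a type cannot be told apart from less RNA per mitochondrion.

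The depth was 17.9 to 25.6 in units of 1e6 mapped reads per library, as estimated from how the lowest RPKM values are spaced. RPKM of HDA6 was 2.84 to 3.62 in hda6-6 and 8.58 to 10.01 in Col, of HDA5 3.23 to 3.80 in hda5-1 and 10.1 to 10.9 in Col, of HDA9 0.399 to 0.693 in hda9-1 and 4.39 to 5.65 in Col, and of FVE 0.227 in fve-4 and 20.9 to 22.3 in Col. FLD was at 3.52 in the fld-6 library and 3.42 to 4.08 in Col, so that its level gives no check of that label, and the sample is called the library labelled fld-6 throughout. Leaf genes were abundant, with RBCS1A, the small subunit of Rubisco, at 6161 to 8519 RPKM. The leaf gene RCA had 3856, 3276 and 3651 RPKM in Col and at most 2661 in any mutant library. The flower gene AP3 was at most 0.179, but the flower gene PI ran over 1.01 to 2.82 RPKM. The seed storage gene SESA3 was at most 0.0558, but the seed gene CRA1 ran over 0.0440 to 1.96 RPKM. The root aquaporin TIP2;3 ran over 3.73 to 61.5 RPKM. Of 3 root markers, 1 was called higher in hda6-6 and in hda5-1, against 7.95% and 5.51% over all genes tested. The part of root share in the values below was not tested.

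A large insertion of mitochondrial DNA lies on chromosome 2 of Arabidopsis, and part of the genes have a near-identical sequence in the nucleus. In the RefSeq TAIR10.1 assembly, 23 of 36 mitochondrial protein and rRNA genes had a nuclear match of at least 90% identity over at least 80% of their bases, and 16 of these were identical. The matches lay between positions 3239693 and 3503476 of chromosome 2, apart from 1 match on another chromosome. The gene for ATP synthase subunit 9 (atp9) is shown because it was the most abundant member annotated as a protein gene. Its coding sequence is the same in both genomes. It lies at MT:270961-271185 on the minus strand and at chr2:3251856-3252080 on the minus strand (TAIR10.1).
atp9: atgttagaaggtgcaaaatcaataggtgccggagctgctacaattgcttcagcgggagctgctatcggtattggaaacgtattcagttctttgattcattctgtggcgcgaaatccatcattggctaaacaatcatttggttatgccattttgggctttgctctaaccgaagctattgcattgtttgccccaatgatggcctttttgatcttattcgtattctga

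The gene ccmFN1, for a part of the machinery that attaches heme to cytochrome c, is shown because its genomes differ at 1 base. Mitochondrial transcripts are edited from C to U, so a T at this base in an RNA read need not come from chromosome 2. Editing at this base was not tested. The windows of 61 bases on the plus strand, MT:316036-316096 and chr2:3297913-3297973 (TAIR10.1), hold the difference C54T, with the mitochondrial base first and positions counted from 1 at the first base of the coding sequence. The base that differs is in capitals.
ccmFN1 mitochondrion: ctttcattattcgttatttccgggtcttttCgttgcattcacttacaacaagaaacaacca
ccmFN1 chromosome 2: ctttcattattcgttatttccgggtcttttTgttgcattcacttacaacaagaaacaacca

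By the notes of RefSeq, by sequence or by equal values, 54 of the 124 genes were paired with 56 nuclear genes in this stretch of chromosome 2. For 17 of them the RPKM was the same as that of the nuclear gene in all 14 libraries, as for atp8 (ATMG00480) and AT2G07707, both with a mean of 2.88 RPKM. Of the 40 pairs with different values, the nuclear gene was higher in 27. The gene for the cytochrome c maturation protein ccmFC (ATMG00180) averaged 0.184 RPKM over the 14 libraries and its nuclear copy AT2G07723 averaged 3.24. The complex I gene nad7 (ATMG00510) averaged 0.324 RPKM and AT2G07709 averaged 3.29. The gene cob (ATMG00220), for cytochrome b of complex III, averaged 0.0765 RPKM and AT2G07727 averaged 0.624. The copy was lower for atp9 (ATMG01080), which averaged 12.7 RPKM against 4.93 for AT2G07671. The open reading frame ATMG01220 averaged 3.36 RPKM against 0.468 for AT2G07798.

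The read steps behind the values differed between genes. RPKM was multiplied by the RefSeq coding length and the estimated depth for 18 genes, with a tolerance of 0.03 for a whole read. The products were whole in 14 of 14 libraries for the complex I genes nad4L and nad9. A nuclear match covered only 24.4% and 19.5% of the bases of these genes. For atp1 (ATMG01190) the products were also whole in 14 of 14 libraries. This subunit of the ATP synthase was too low to be a member and has an identical nuclear copy. For cob, atp8, ccmFN1 and the ribosomal protein genes rps4 and rps7, which all have a copy, the products were whole in only 6 to 9 libraries. They were whole in all 14 after multiplication by 2, as for the ribosomal protein gene rpl5 after multiplication by 6. For atp9 and the complex IV gene cox3, which also have a copy, they were whole in 3 libraries and 1 library, and in 6 and 2 after multiplication by 6, so that no step was found at these lengths. For the 17 genes equal in value to a nuclear gene, a fold change is that of both. The other pairs need not move together, and the genome that a read of a copied gene came from is uncertain.

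**Figure D1:**
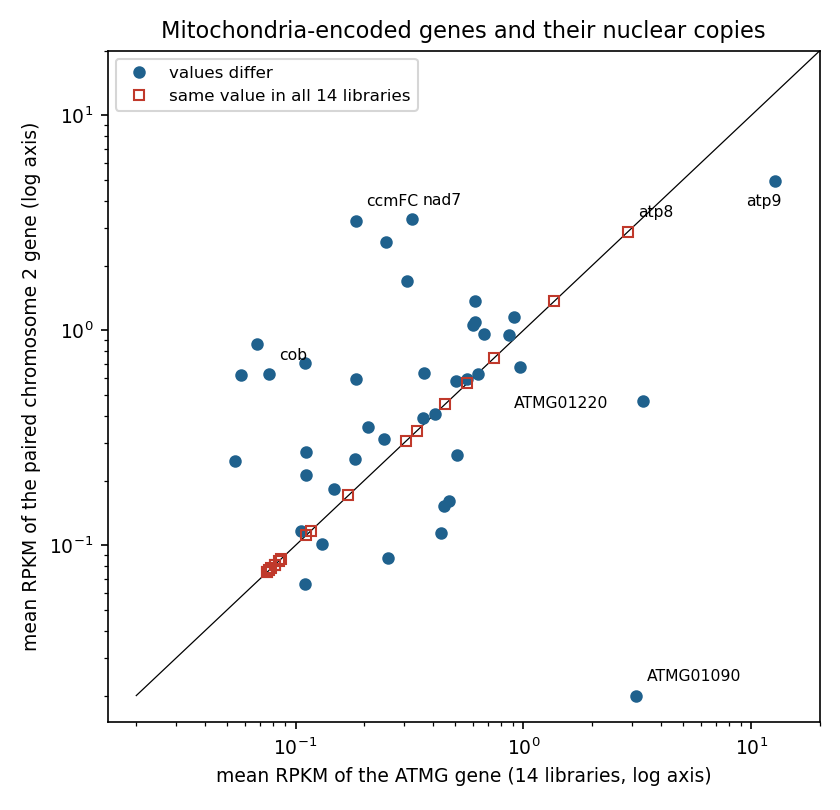
Mean RPKM over the 14 libraries of each paired mitochondria-encoded gene (x axis, log scale) and of its paired gene on chromosome 2 (y axis, log scale), with the line of equal values and with a copy at 0 drawn at 0.02. Squares are pairs with the same value in all 14 libraries, and the copies of ccmFC and nad7 lie above the line while that of atp9 lies below it.

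Most of the genes were at low levels. The mean RPKM was below 1 for 92 genes, 1 to 5 for 25 genes and 5 or more for 7 genes, with a median of 0.394, against 5.34 over all genes tested. In all 14 libraries, 55 genes were above 0.1 RPKM, and between 11 and 30 of the 124 were at 0 in a library. At the edge of the rule, 1 gene was above 0.1 in exactly 3 libraries and 0 genes in exactly 2, and 3 of the 22 IDs left out were at 0 in every library. The lowest mean of a gene kept was 0.0348 RPKM and the highest mean of an ID left out was 0.0475 RPKM.

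The ribosomal RNAs and the unannotated ATMG00030 led the list. ATMG01390, annotated as ribosomal RNA, had 51.1, 47.3 and 150 RPKM in hda6-6 libraries, 46.3, 105 and 71.0 in hda5-1, 67.5, 45.3 and 49.2 in hda9-1, 35.2 in fve-4, 140 in the library labelled fld-6 and 62.3, 45.4 and 40.7 in Col. The level was highest in hda6-6 replicate 3 and the library labelled fld-6, and the libraries of each replicated mutant overlapped with Col. ATMG00020, also ribosomal RNA, averaged 61.7 RPKM over the 14 libraries, and ATMG01380, the remaining one, 17.8. ATMG00030, which has no annotation in the tables used, averaged 68.8 RPKM and reached 136 in hda6-6 replicate 3 and 123 in the library labelled fld-6, against 45.1 to 68.4 in Col. These 4 genes held 49.6 to 79.5% of the summed RPKM of all 124.

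Among members annotated as protein genes, atp9 stood out. Subunit 9 forms the ring of the ATP synthase through which protons pass. Its RPKM was 6.50, 9.92 and 14.3 in hda6-6 libraries, 8.06, 8.96 and 10.4 in hda5-1, 12.2, 14.5 and 10.4 in hda9-1, 9.22 in fve-4, 21.6 in the library labelled fld-6 and 15.9, 16.2 and 20.2 in Col. Every library of hda6-6, hda5-1, hda9-1 and fve-4 was below every Col library, and the library labelled fld-6 was above them. The log2 fold change was -0.82 (SE 0.24, adjusted p = 0.0178) in hda6-6, -0.92 (SE 0.24, adjusted p = 0.0124) in hda5-1, -0.50 (adjusted p = 0.148) in hda9-1, -0.90 (adjusted p = 0.0728) in fve-4 and 0.31 (adjusted p = 0.702) in the library labelled fld-6, by limma over all genes tested. The change did not reach 2-fold in any of these comparisons, and the gene was not called.

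The other 3 genes classed by annotation as ATP synthase subunits averaged 0.513 to 2.88 RPKM, led by atp8. ATMG01090, annotated as ATP synthase 9 but counted with the other open reading frames, averaged 3.13 RPKM. The 13 annotated genes and gene parts of complex I, which oxidizes NADH, averaged 0.182 (nad6, ATMG00270) to 2.40 RPKM (ATMG00665, annotated NADH dehydrogenase 5B), with a median of 0.629. The complex I gene nad9 (ATMG00070), which has no nuclear copy, had 0.660, 0.649 and 1.88 RPKM in hda6-6 libraries, 0.920, 2.18 and 1.75 in hda5-1, 0.781, 0.733 and 1.18 in hda9-1, 0.748 in fve-4, 1.99 in the library labelled fld-6 and 0.814, 1.21 and 1.12 in Col, and the replicated mutants overlapped with Col. The complex III gene cob was listed at 0 in every Col library, where AT2G07727, which holds an identical copy, had 0.636, 0.693 and 0.595 RPKM. The genome that reads of this pair came from is uncertain. The complex IV gene cox3 (ATMG00730) averaged 0.506 RPKM. ATMG01280, annotated as like subunit II of cytochrome c oxidase but counted with the other open reading frames, averaged 0.449 RPKM. The 4 genes annotated to cytochrome c maturation averaged 0.112 to 0.437 RPKM, the 6 annotated ribosomal protein genes 0.250 to 1.59 and the 18 tRNA precursors 0.0673 to 1.08. The 46 other open reading frames ranged over 0.0519 to 3.36 RPKM, led by ATMG01220. The lists of genes by role used here name some of the 28 IDs with no annotation, which the ranges above leave out. Among these were the complex IV genes cox2 (ATMG00160) with 3.05 RPKM and cox1 (ATMG01360) with 2.01. The ribosomal protein gene rpl16 (ATMG00080) had 2.13 and the cytochrome c maturation gene ccmB (ATMG00110) 1.99. The lists also name atp6-2 (ATMG01170) with 1.62, matR (ATMG00520) with 0.433 and nad5a (ATMG00513) with 0.106. The 28 IDs had a median of 0.893 RPKM, and after ATMG00030 came ATMG01370 with 8.33, ATMG00660 with 5.11, ATMG00040 with 4.53 and ATMG00690 with 4.37 RPKM.

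**Figure D2:**
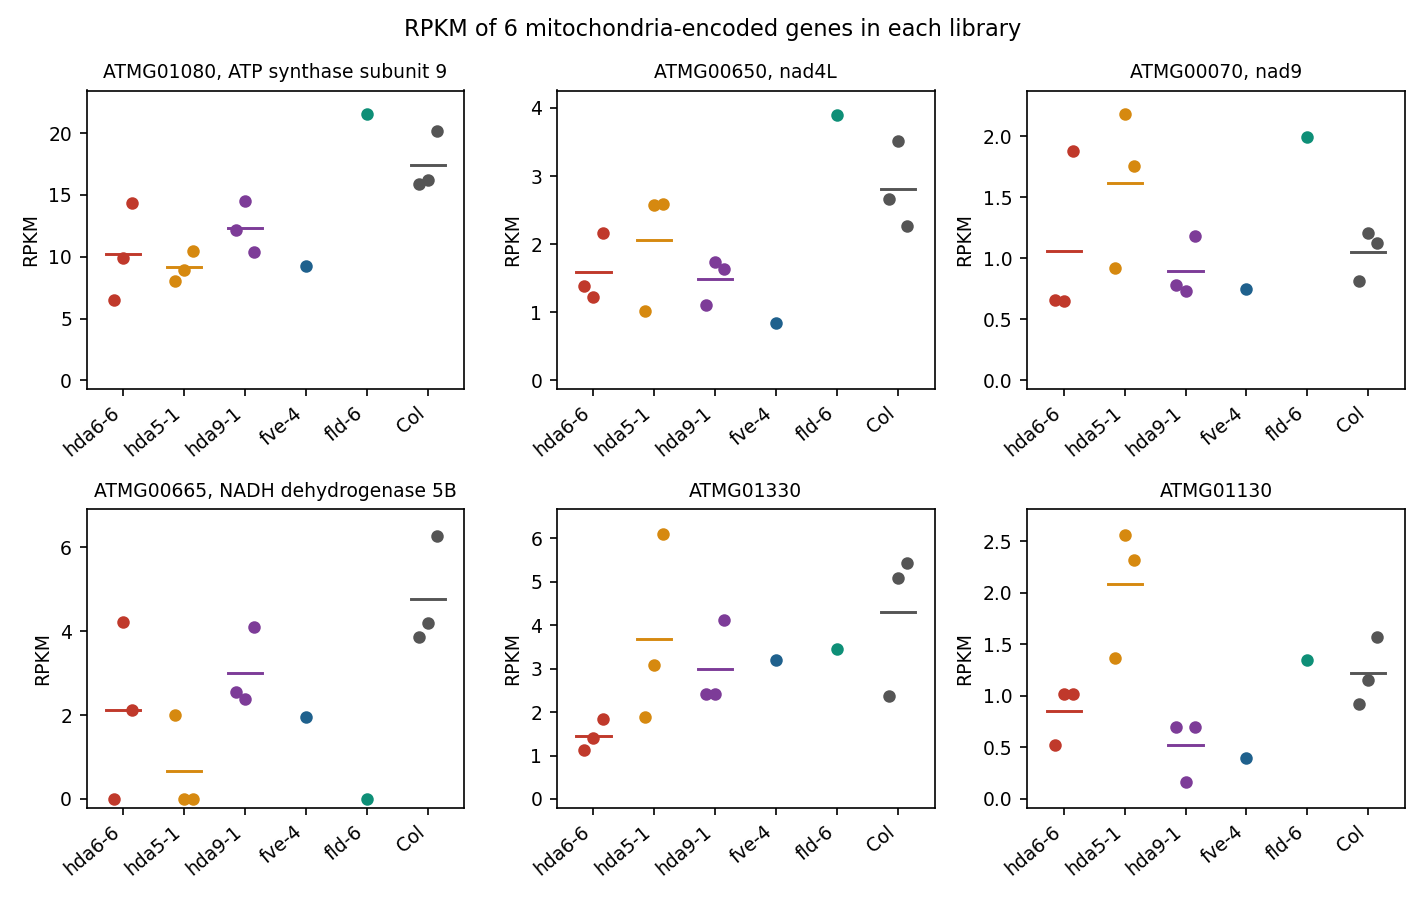
RPKM of atp9, nad4L, nad9, ATMG00665, ATMG01330 and ATMG01130 in each library (y axes, RPKM) by genotype, with points for libraries and lines for the genotype means. The gene atp9 was lower in every hda6-6, hda5-1, hda9-1 and fve-4 library than in the 3 Col libraries at 15.9 to 20.2 RPKM.

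The summed RPKM of the 124 genes was 222, 247 and 567 in hda6-6 libraries, 250, 427 and 379 in hda5-1, 299, 227 and 218 in hda9-1, 254 in fve-4, 583 in the library labelled fld-6 and 311, 289 and 285 in Col. Each replicated mutant overlapped with Col, and the 3 hda6-6 libraries spread over a wider range than any other group. The mean was 345 ± 192 in hda6-6, 352 ± 91.5 in hda5-1, 248 ± 44.3 in hda9-1 and 295 ± 14.5 in Col (SD, n = 3 each). None of the exact permutation tests against Col, which with 3 against 3 cannot go below 0.1, passed (2-sided exact p = 1 for hda6-6, 0.4 for hda5-1 and 0.3 for hda9-1, n = 3 each, or 1, 0.6 and 0.6 adjusted over the 6 tests of sums). Without hda6-6 replicate 3, the log2 ratio of the sums for hda6-6 was -0.33, against 0.23 with it.

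The part of the sum from the 3 ribosomal RNAs and the unannotated ATMG00030 moved with chloroplast and nuclear rRNA reads. The 3 ribosomal RNAs and ATMG00030 together had 163, 151 and 450 RPKM in hda6-6 libraries, 164, 305 and 245 in hda5-1, 214, 142 and 129 in hda9-1, 155 in fve-4, 425 in the library labelled fld-6 and 200, 148 and 141 in Col. The summed RPKM of the chloroplast-encoded genes was 2072, 974 and 10212 in hda6-6 libraries, 1522, 7133 and 2557 in hda5-1, 3653, 1827 and 1115 in hda9-1, 1551 in fve-4, 11458 in the library labelled fld-6 and 5613, 1257 and 1682 in Col. Replicate 3 of hda6-6, replicate 2 of hda5-1 and the library labelled fld-6 were high in both. Over the 14 libraries, which share the RPKM total within each library, Spearman's rho of the first sum was 0.83 with the chloroplast sum and 0.90 with the sum of 4 nuclear rRNA genes, which ran over 1856 to 22234 RPKM. The part that these reads have in the mitochondrial values was not tested.

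The other 120 genes, a split chosen after their values were seen, were summed apart. Their sum was 59.2, 95.9 and 116 RPKM in hda6-6 libraries, 85.9, 122 and 133 in hda5-1, 84.6, 85.2 and 89.5 in hda9-1, 99.3 in fve-4, 158 in the library labelled fld-6 and 111, 140 and 144 in Col. All 3 hda9-1 libraries and the fve-4 library were below all 3 Col libraries, and hda6-6 and hda5-1 overlapped with Col. The mean was 86.4 ± 2.67 in hda9-1 and 132 ± 17.9 in Col (SD, n = 3 each), a log2 ratio of -0.61 (2-sided exact permutation p = 0.1, the smallest this design allows, adjusted p = 0.6 over 6 tests). The rho of this sum over the 14 libraries was 0.27 with the chloroplast sum. It was 0.23 with the sum of the 3 ribosomal RNAs and ATMG00030.

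**Figure D3:**
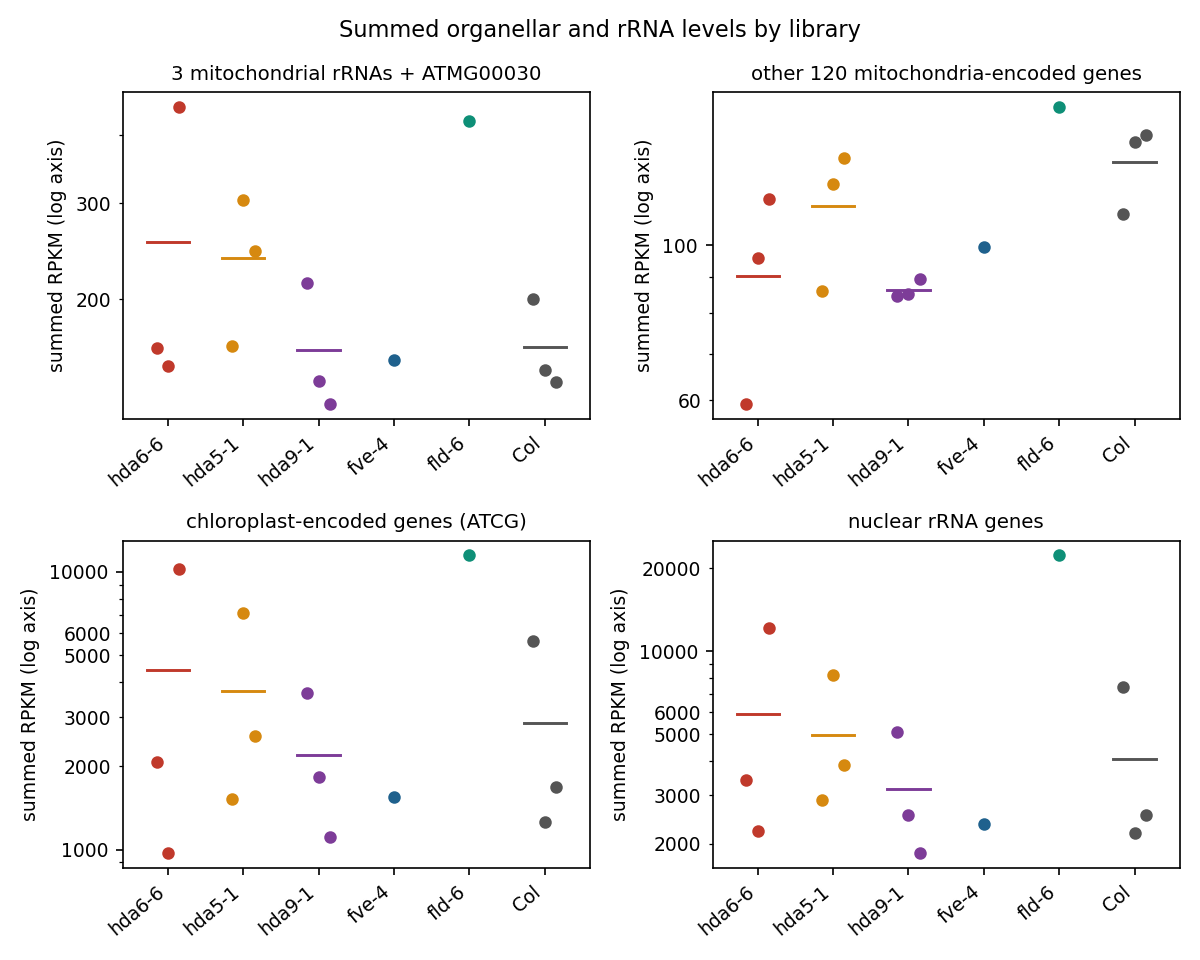
Summed RPKM per library (y axes, log scale) of the 3 mitochondrial rRNAs with ATMG00030, the other 120 mitochondria-encoded genes, the chloroplast-encoded genes and the nuclear rRNA genes, by genotype, with points for libraries and lines for means. Replicate 3 of hda6-6 and the library labelled fld-6 are the highest in the rRNA and chloroplast plots, while among the other 120 genes the 3 hda9-1 libraries lie at 84.6 to 89.5, below all Col libraries.

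The comparisons of the mutants with Col used limma on log2(RPKM + 0.1), a scale that understates the change of low genes. Genes count as called where the change was at least 2-fold with an adjusted p under 0.05. All genotypes shared 1 estimate of spread, so the lone fve-4 and fld-6 libraries were assumed to vary like the replicated ones. No gene of the 124 was called in more than 1 mutant. The 15 called in some mutant averaged 0.0676 to 3.14 RPKM, with a median of 0.326. All mutants share the 3 Col libraries.

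In hda6-6, 2 of the 124 genes were higher and 8 lower, against 7.95% higher and 4.96% lower over all genes tested. The median log2 fold change was -0.40, against 0.05 over all genes tested, and 77.4% of the 124 had a negative value. The unannotated ATMG01330 had the highest level of these 10, with 1.14, 1.39 and 1.84 RPKM in hda6-6 and 2.38, 5.09 and 5.45 in Col. No library of hda6-6 reached the Col range (log2 fold change -1.44, SE 0.41, adjusted p = 0.0176). ATMG01210, of unknown function, had 0.275, 0.380 and 0.586 RPKM in hda6-6 and 0.901, 0.907 and 0.976 in Col (log2 fold change -1.05, SE 0.35, adjusted p = 0.0359), and its values are the same as those of the nuclear AT2G07826, so that they cannot be told apart. The tRNA precursor ATMG00390, equal in value to AT2G07765, had 0.337, 0 and 0.188 RPKM in hda6-6 and 0.682, 0.928 and 1.29 in Col (adjusted p = 0.0463). These groups did not overlap.

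The other genes called in hda6-6 were open reading frames of unknown function, a further pair of tRNA precursors and 1 unannotated ID. ATMG00130 had 0.344, 0.381 and 0 RPKM in hda6-6 and 0.580, 0.758 and 0.753 in Col, ATMG00400 had 0.177, 0.147 and 0.148 in hda6-6 and 0.582, 0.585 and 0.291 in Col, and the unannotated ATMG00320 had 0.109, 0.0807 and 0 in hda6-6 and 0.203, 0.161 and 0.359 in Col (log2 fold change -1.51, -1.14 and -1.09). ATMG00010 and the tRNA precursor ATMG00190 were listed at 0 in all hda6-6 libraries, and at 0.184, 0.1001 and 0.199 and at 0.860, 0.312 and 0.932 RPKM in Col. The higher genes were listed at 0 in all Col libraries. These were the tRNA precursor ATMG00380, with 0.677, 0.750 and 0.377 RPKM in hda6-6 (adjusted p = 0.0239), and ATMG00260, of unknown function, with 0.137, 0.380 and 0.153 (adjusted p = 0.0228).

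The values of ATMG00010, ATMG00190 and ATMG00260 were whole multiples of 1 step (tolerance 0.05, with up to 12 tried as multiplier) and reached at most 5 steps in any library. The count of calls was 5 without Col replicate 1, 3 without Col replicate 2, 1 without Col replicate 3 and 3 without hda6-6 replicate 2. ATMG01330 kept its call in 16 of 21 alternative settings and lost it without hda6-6 replicate 1 or 2 and without Col replicate 2 or 3. The median over the 124 genes was -0.56 without hda6-6 replicate 3 and -0.22 without hda6-6 replicate 1, so it stayed negative while its size moved.

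In hda5-1, 0 of the 124 genes were higher and 1 was lower, against 5.51% higher and 3.94% lower over all genes tested. The median log2 fold change was -0.07, against 0.04 over all genes tested, and it was 0.09 without hda5-1 replicate 1. The gene called was ATMG00665, a part of the complex I subunit nad5, with 2.00, 0 and 0 RPKM in hda5-1 and 3.86, 4.20 and 6.27 in Col (log2 fold change -4.11, SE 1.31, adjusted p = 0.0371). With a length of 22 bases, that of the shortest nad5 exon in RefSeq, these values come to 1, 0 and 0 reads in hda5-1 and 2, 2 and 3 reads in Col. The call was lost without hda5-1 replicate 2 or 3, without each Col replicate, and with a pseudocount of 0.01, where the log2 fold change was -6.32. The count of calls, of other genes in part, was 0 without Col replicate 1 or 3, 3 without Col replicate 2 and 2 without hda6-6 replicate 1, hda5-1 replicate 2, hda5-1 replicate 3 or hda9-1 replicate 2. Both hda6-6 and the library labelled fld-6 also held libraries at 0 for this gene.

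In hda9-1, 0 of the 124 genes were higher and 3 lower, against 2.1% higher and 3.75% lower over all genes tested. Of the log2 fold changes, 108 of 124 were negative (87.1%), with a median of -0.50, against 0.08 over all genes tested, and 26 of 124 had an unadjusted p under 0.05, against 8551 of all 23187 genes tested. Per library, the median log2 difference from the Col mean was -0.50, -0.57 and -0.49 in hda9-1 and -0.12, 0.05 and 0.06 in Col. It was -0.75, -0.37 and -0.08 in hda6-6, and -0.50, 0.00 and 0.12 in hda5-1. The 6 ribosomal protein, 4 cytochrome c maturation and 4 ATP synthase genes so classed by annotation were negative without exception in hda9-1. So were all 28 IDs with no annotation, and 12 of the 13 annotated complex I genes, but none of these genes was called. Some genes of other classes went the other way from 0 in all Col libraries. In hda9-1, cob had 0.213, 0 and 0.210 RPKM, the tRNA precursor ATMG00380 0.451, 0 and 0.364, and ATMG00260 0, 0.171 and 0.147.

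The genes called in hda9-1 were open reading frames of unknown function, and the values of ATMG01400 and ATMG00470 reached at most 3 and 2 whole steps in any library. ATMG01400 was listed at 0 in all 3 hda9-1 libraries and at 0.133, 0.145 and 0.434 RPKM in Col (adjusted p = 0.0195). ATMG00470 was likewise at 0 in hda9-1 and at 0.115, 0.125 and 0.125 RPKM in Col (adjusted p = 0.0368). ATMG01030 had 0, 0 and 0.140 RPKM in hda9-1 and 0.397, 0.576 and 0.286 in Col (adjusted p = 0.0400). These groups did not overlap. The count of calls was 0 without Col replicate 3 and 9 without hda9-1 replicate 3, with 4 and 5 without Col replicates 1 and 2 and 6 without hda9-1 replicate 2.

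In fve-4, 0 of the 124 genes were higher and 1 was lower, against 3.9% higher and 3.98% lower over all genes tested. The median log2 fold change was -0.24 and that over all genes tested was 0.19. Rescaling the libraries, by median of ratios or trimmed mean, gave -0.38 and -0.39 for the 124 and 0.01 and 0.00 for all genes tested. The gene called was nad4L (ATMG00650), a membrane subunit of complex I, at 0.848 RPKM in fve-4 and 2.66, 3.51 and 2.27 RPKM in Col, which is 6 reads in fve-4 and 19, 23 and 15 reads in Col (log2 fold change -1.60, SE 0.48, adjusted p = 0.0337). The fve-4 library lay below all Col libraries, and nad4L has no nuclear copy. Its call was lost without Col replicate 1 and without Col replicate 2. The count of calls was 4 without hda9-1 replicate 2, and 2 without hda6-6 replicate 1, hda6-6 replicate 3 or Col replicate 3. The other mutants had 1.39, 1.23 and 2.16 RPKM in hda6-6 libraries, 1.01, 2.58 and 2.60 in hda5-1, 1.11, 1.73 and 1.64 in hda9-1 and 3.90 in the library labelled fld-6. The 4 annotated cytochrome c maturation genes had positive values in fve-4 with a median of 0.56, while ATMG00110, which has no annotation in the tables but stands in the list used for this role, had 1.31 RPKM in fve-4 and 2.12, 2.46 and 2.59 in Col. The 4 genes classed by annotation as ATP synthase had negative values with a median of -0.76, and none of these genes was called.

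In the library labelled fld-6, 0 of the 124 genes were called by limma in either direction, against 0.677% higher and 1.13% lower over all genes tested, and 15 of 124 had an unadjusted p under 0.05, against 3800 of all 23187 genes tested. The count was 0 in each alternative setting except 1 without hda9-1 replicate 1. The median log2 fold change was 0.30, against 0.02 over all genes tested, and 86 of 124 values were positive. The ribosomal RNAs had a median of 1.50 and the 13 annotated complex I genes of 0.93, with 10 of 13 positive. This library was also the highest in the summed chloroplast and nuclear rRNA levels given above.

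**Figure D4:**
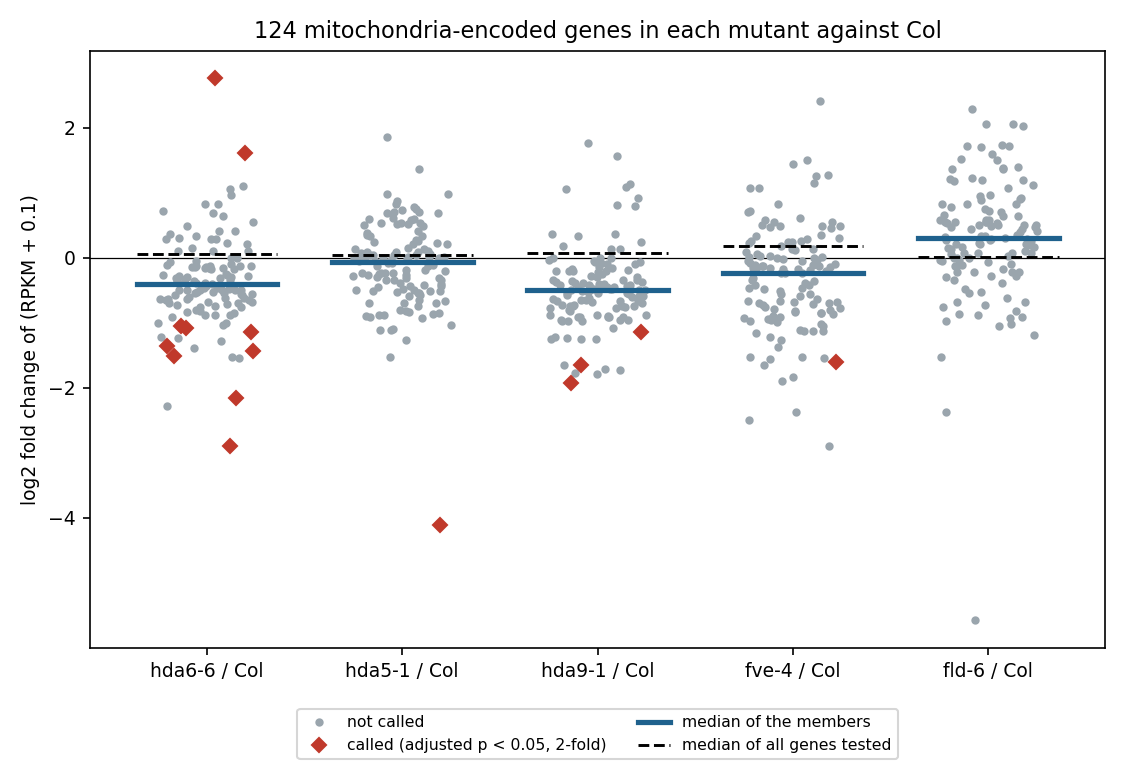
Log2 fold change of (RPKM + 0.1) of the 124 mitochondria-encoded genes (y axis) in each mutant against Col, with called genes as red diamonds, the median of the 124 as a solid bar and the median of all genes tested as a dashed bar. The solid bars lie at -0.40 in hda6-6, -0.07 in hda5-1, -0.50 in hda9-1, -0.24 in fve-4 and 0.30 in the library labelled fld-6.

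Whether mutants differed from each other was tested directly. Between hda5-1 and hda9-1, 2 of 124 genes were higher in hda5-1 and 0 were lower, against 6.26% of all genes tested called in either direction. ATMG01130, of unknown function, had 1.37, 2.56 and 2.31 RPKM in hda5-1 and 0.697, 0.163 and 0.702 in hda9-1 (log2 fold change 1.94, SE 0.42, adjusted p = 0.00758). The groups did not overlap, and the call held in 21 of 21 alternative settings. The unannotated ATMG00810 had 1.28, 0.676 and 1.33 RPKM in hda5-1 and 0.232, 0.290 and 0.498 in hda9-1 (log2 fold change 1.43, SE 0.34, adjusted p = 0.0107), and was called in 19 of 20 settings. In Col, ATMG01130 had 0.925, 1.15 and 1.57 RPKM, and their range overlapped with hda5-1 and not with hda9-1. Without hda5-1 replicate 1 the count between these mutants was 8, and without hda6-6 replicate 1, whose loss moves the shared spread, it was 4.

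Between hda6-6 and hda5-1, 0 of 124 genes were higher in hda6-6 and 2 were lower, against 5.35% of all genes tested. ATMG01350, of unknown function, had 0.579, 1.17 and 0.939 RPKM in hda6-6 and 2.32, 1.75 and 2.39 in hda5-1 (adjusted p = 0.0481), and ATMG01410 had 0.137, 0.379 and 0.229 in hda6-6 and 0.572, 0.572 and 0.568 in hda5-1 (adjusted p = 0.0362). Both calls were lost under either rescaling of the libraries, and the count was 0 without hda6-6 replicate 1, hda5-1 replicate 2 or hda5-1 replicate 3, and 1 without each Col replicate. Between hda6-6 and hda9-1 limma called 0 of 124, against 7.94% of all genes tested, with 10 of 124 at an unadjusted p under 0.05, against 8693 of all 23187 genes, and with 5 calls without hda9-1 replicate 3, 2 without hda6-6 replicate 1 or 2, and 1 without hda6-6 replicate 3, hda5-1 replicate 1, hda5-1 replicate 3 or hda9-1 replicate 2. Between fve-4 and the library labelled fld-6 it also called 0, against 1.55% of all genes tested, with 20 of 124 at an unadjusted p under 0.05, against 4433 of all 23187 genes, and 1 call without hda5-1 replicate 1.

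The spread between replicates was wider for the mitochondria-encoded genes than for other genes. The SD of log2(RPKM + 0.1), pooled over hda6-6, hda5-1, hda9-1 and Col, had a median of 0.60 for the 124 genes and 0.21 for all genes tested. The gap was also seen within each class of level, though the classes are broad and match neither gene length nor the number of reads. The median over all genes tested was 5.34 RPKM, within the open top class. The part of read number in the gap was not tested. The median SD was 0.73 for the 69 genes below 0.5 RPKM and 0.46 for all 3559 tested genes at that level, 0.52 for 37 genes and 0.31 for 3753 at 0.5 to 2 RPKM, and 0.42 for 18 genes and 0.17 for 15875 at 2 RPKM or more. The widest gene was ATMG00665, with a pooled SD of 1.95 and at most 3 read steps in any library. Within a genotype the median SD of the 124 was 0.57 in hda6-6, 0.55 in hda5-1, 0.50 in hda9-1 and 0.40 in Col.

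**Figure D5:**
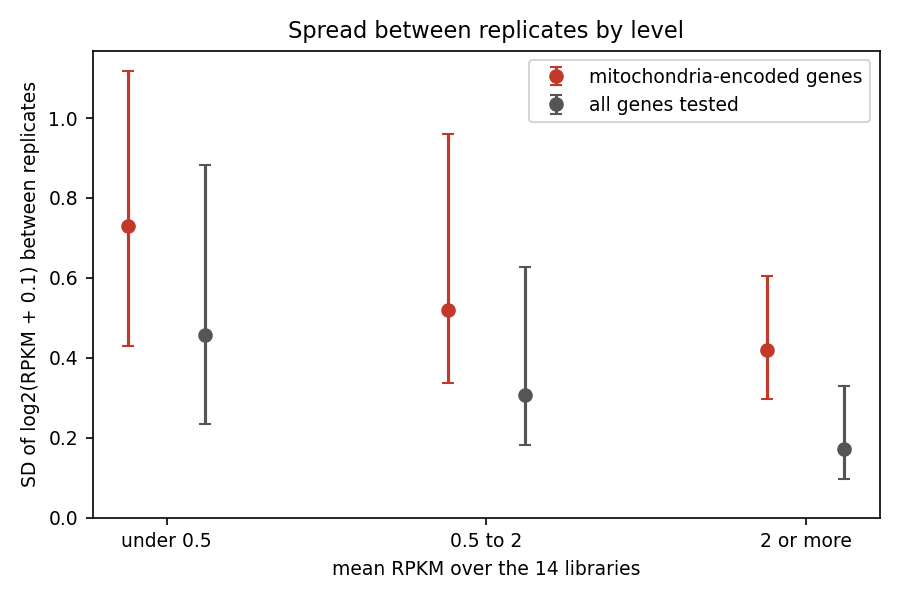
SD of log2(RPKM + 0.1) between replicates (y axis), pooled over hda6-6, hda5-1, hda9-1 and Col, by mean RPKM over the 14 libraries (x axis), for mitochondria-encoded genes and all genes tested. Points are medians and bars run from the first to the ninth decile, and the median of the mitochondria-encoded genes is the higher in each class, at 0.73, 0.52 and 0.42.

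Nuclear genes of mitochondrial function are given beside the mitochondria-encoded ones. Of 24 nuclear genes for respiratory chain subunits, 0 were called by limma in any mutant, with 13 in hda6-6, 10 in hda5-1, 18 in hda9-1, 6 in fve-4 and 0 in the library labelled fld-6 at an unadjusted p under 0.05, against 10071, 8610, 8551, 8216 and 3800 of all 23187 genes for the same mutants. Their median log2 fold change was 0.25 in hda6-6, 0.21 in hda5-1, 0.37 in hda9-1, 0.16 in fve-4 and -0.01 in the library labelled fld-6. A further list held 21 nuclear genes that act on mitochondrial RNA or DNA. Of these, RPOTmp (AT5G15700), a phage-type RNA polymerase of mitochondria and chloroplasts, was lower in hda5-1. It had 0.409, 0.603 and 0.384 RPKM in hda5-1 and 1.09, 1.09 and 1.11 in Col (limma adjusted p = 0.00207). WTF9 (AT2G39120), which splices mitochondrial introns, was higher in fve-4, at 2.78 RPKM in fve-4 and 1.24, 1.04 and 1.34 in Col (adjusted p = 0.00586). The other genes of this list were not called. Over all genes tested, 3.94% were called lower in hda5-1 and 3.9% higher in fve-4.

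AOX1A (AT3G22370), the alternative oxidase that is induced when respiration is impaired, was lower in several mutants. It had 36.05, 35.5 and 35.6 RPKM in hda6-6 libraries, 81.7, 74.8 and 72.5 in hda5-1, 66.6, 56.9 and 49.5 in hda9-1, 43.2 in fve-4, 70.9 in the library labelled fld-6 and 136, 138 and 114 in Col. Every mutant library was below every Col library. The log2 fold change was -1.85 (adjusted p = 2.07e-07) in hda6-6, -1.17 (adjusted p = 2.96e-05) in hda9-1 and -1.57 (adjusted p = 0.000101) in fve-4, all called, and -0.76 (adjusted p = 0.000343) in hda5-1 and -0.86 (adjusted p = 0.0120) in the library labelled fld-6, which did not reach 2-fold. Of the 6 genes of mitochondrial stress that include it, 2 were called lower in hda6-6, 1 in hda5-1, 3 in hda9-1, 2 in fve-4 and 0 in the library labelled fld-6. Over all genes tested, 4.96, 3.94, 3.75, 3.98 and 1.13% were called lower in the same order. In no mutant was a gene of this list called higher, against 0.677 to 7.95% over all genes tested.

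The nuclear copies on chromosome 2 had medians of the same sign as the mitochondria-encoded genes. Of 59 copies tested, 0 were called higher in any mutant, against 0.677 to 7.95% over all genes tested. Called lower were 3 in hda6-6, 0 in hda5-1, 4 in hda9-1, 1 in fve-4 and 0 in the library labelled fld-6. The shares called lower over all genes tested were 4.96, 3.94, 3.75, 3.98 and 1.13% in the same order. The copies had a median log2 fold change of -0.39 in hda6-6, -0.07 in hda5-1, -0.54 in hda9-1, -0.31 in fve-4 and 0.14 in the library labelled fld-6. The 54 paired genes had a median of -0.37 and the 70 genes without a pair one of -0.45 in hda6-6, and -0.47 and -0.51 in hda9-1. These values share reads or libraries and carry no test. Among 127 chloroplast-encoded genes, the medians were 0.32 in hda6-6, 0.41 in hda5-1, -0.12 in hda9-1, -0.26 in fve-4 and 1.03 in the library labelled fld-6. Of these genes, 0 to 2 were called higher and 0 or 1 lower in each, against 0.677 to 7.95% higher and 1.13 to 4.96% lower over all genes tested.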

How the data were processed

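The authors sequenced poly-A RNA of 14 seedling libraries on an Illumina instrument. Per the labels they used CASAVA 1.8 and Bowtie2 against TAIR10, and the deposited values are RPKM per gene and library, computed by the authors with RackJ, with no read counts. How reads that map to both the mitochondrion and chromosome 2 were shared is not given in the sources used here.

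Values were transformed to log2(RPKM + 0.1). Every gene that exceeded 0.1 RPKM in 3 or more libraries entered limma 3.58.1 (R 4.3.3) with an intensity trend, with genotype as the only factor and all 14 libraries. The Benjamini-Hochberg adjustment was made within a comparison, and calls needed an adjusted p under 0.05 and 2-fold. Sums per library were compared by 2-sided exact permutation tests (SciPy 1.17.1). The fitting code was tested on simulated data. Depth was estimated from the spacing of low RPKM values: at the best depth 16.6 to 23.4% of these values were whole reads (tolerance 0.02), against 3.36 to 3.65% at the median depth tried. Such low values rest on few reads, and depth enters no test.

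Nuclear copies were found with BLAST+ 2.17.0 in RefSeq TAIR10.1, whose mitochondrial sequence (367808 bases) is another one than that of TAIR10 and carries no ATMG IDs. Its coordinates are given only for sequences read from it, and 18 ATMG IDs were matched to it by gene name.

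Named genes were those called against Col, the 10 with the highest mean RPKM, the highest of each role, and genes of other lists called in at least 3 mutants, with their copies. Genes called between mutants, atp1, nad9, rps4, rps7, rpl5, ccmFN1, RPOTmp and WTF9 were added after their values were seen. The members and lists were chosen with earlier results of these data known. The alternatives tried are in the closing section.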

Additional observations from a re-analysis of the deposited data

How the results depend on the processing

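The counts of mitochondria-encoded genes called rest on low values. Against Col, hda6-6 (10 main calls) had 1 with a pseudocount of 1, 0 without the filter on low values and 1 with a mean RPKM of at least 1. In hda5-1 (1) the count was 0 without the filter, 0 without the intensity trend and 2 without the fold threshold. In hda9-1 (3) the count was 0 with a pseudocount of 1, 5 with one of 0.01, 1 without the filter, 1 at a mean RPKM of at least 1 and 5 without the fold threshold. In fve-4 (1) it was 0 without the filter. Between hda6-6 and hda5-1 (2), the count was 0 with a pseudocount of 1, without the filter, and under both rescalings (median of ratios and trimmed mean), and 1 with a pseudocount of 0.01, at a mean RPKM of at least 1 and without the intensity trend. Between hda6-6 and hda9-1 (0) it was 1 with a pseudocount of 0.01 and 1 without the fold threshold. Between hda5-1 and hda9-1 (2) it was 1 with a pseudocount of 1, 1 at a mean RPKM of at least 1 and 3 without the fold threshold. Of the 15 calls against Col, 3 were kept with a pseudocount of 1, 1 without the filter and 15 under either rescaling. The log2 ratio of the summed RPKM of fve-4 over Col was -0.21, and -0.41 and -0.42 under the rescalings.

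Leaving out each library in turn gave 1 to 10 calls in hda6-6, 0 to 3 in hda5-1, 0 to 9 in hda9-1, 0 to 4 in fve-4 and 0 to 1 in the library labelled fld-6. Between mutants it gave 0 to 3 for hda6-6 and hda5-1, 0 to 5 for hda6-6 and hda9-1, 2 to 8 for hda5-1 and hda9-1, and 0 to 1 for fve-4 and fld-6. Of the 15 calls against Col, 2 were kept without Col replicate 1, 3 without Col replicate 2 and 2 without Col replicate 3.

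Libraries of the same replicate number did not all deviate together: the correlation of their deviations from the group means ran from -0.07 to 0.17 over 18 pairs, with 6 over 0.1, of which 5 were between libraries numbered 1, against 4 of 36 pairs of other numbers. Replicate 1 also had the lowest sum of the other 120 genes in hda6-6, hda5-1, hda9-1 and Col. The labels do not say that a number marks a shared batch. With a replicate block, the count was 7 in hda6-6, 0 in hda5-1, 5 in hda9-1, 0 in fve-4 and 1 between fve-4 and fld-6, and 10 of the 15 calls were kept. Of the 15 genes called, 6 reached at most 5 read steps in any library, where depth limits precision.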
